A study of Homo sapiens with 9 samples.

Results

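MRX34, a liposomal mimic of the tumour-suppressive microRNA miR-34a, was compared with its empty liposome carrier in Hep3B liver tumours. The comparison holds 6 of the 9 arrays of the series, the 3 named MRX34 and the 3 named Empty Liposomes, chosen by their sample names, and covers 15387 named genes. Both groups carried the same tumour in the same host and had the same injection schedule: the human hepatocellular carcinoma line Hep3B was implanted surgically into the livers of Nod/Scid mice, which lack mature T and B cells, grew for about 5 weeks, and was resected 24 hours after 1 intravenous injection. The liposome article without the mimic was the only stated difference. The other 3 arrays came from tumours given dilution buffer, with no liposome. Hep3B is 1 cell line, whole tumours were extracted, and the labels do not say whether each array is a separate animal, so every p-value here measures the spread between samples only.

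A microRNA guides the silencing machinery to messenger RNAs through its seed, the bases near its 5′ end that pair with the target's 3′ untranslated region. miR-34a is itself a transcriptional target of p53 and is known to repress cell cycle, survival and growth factor genes. Hep3B cells are known to lack functional p53. The mature sequence in RefSeq (GRCh38.p14, chr1:9151735-9151756, minus strand) is shown because MRX34 mimics this microRNA, with the seed in capitals:
hsa-miR-34a-5p: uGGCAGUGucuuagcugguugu
Among the microRNAs searched, hsa-miR-449a and hsa-miR-449b-5p have the same seed, and the search may not cover every microRNA that shares it. The labels do not give the strands of MRX34, and the mature microRNA was not measured here.

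The 6 arrays differed in brightness, and 1 array of each group stood apart. Mean background-subtracted intensity was 163, 491 and 325 for empty liposomes 1 to 3 and 323, 512 and 496 for MRX34 1 to 3. The first principal component of the 6 arrays held 53.8% of their variance and placed empty liposomes 1 at -81.5 and MRX34 2 at 52.4, with the others between -7.83 and 22.2. Named probes above background numbered 13690 (31.2%) on empty liposomes 1 and 16518 to 18775 on the other 5. For the gene lists below, values without empty liposomes 1 stand beside a median or a count of small p-values that moved by over 1.5 times without it, and for some lists also without MRX34 2. The Hep3B markers AFP, the fetal plasma protein, and GPC3, an oncofetal proteoglycan, lay above background on every array and differed by 0.06 and -0.05 on the log2 scale. All 8 Hep3B markers were above background there, and their summed level spanned 17.67 to 17.91 log2 units in empty liposomes and 17.79 to 17.90 in MRX34, although TTR, the carrier protein transthyretin, differed by 0.59 without overlap. Of 8 leukocyte markers 4, PTPRC, CD3E and ITGAM among them, were not above background on any of the 6 arrays. CD14, CD68 and LYZ were above it on all 6, with CD68, a macrophage lysosomal protein, at 0.40, and the summed level of these 3 spanned 11.15 to 11.52 log2 units in empty liposomes and 11.50 to 11.73 in MRX34. Of 5 endothelial markers, CDH5, VWF, KDR and TEK were not above background, and PECAM1 was above it on 1 carrier array and 3 MRX34 arrays, at 0.68. CD68 and PECAM1 are outside the naming rule. Host leukocytes, endothelium and surrounding liver were mouse cells, while the probes are named by human genes. How far such probes read mouse RNA was not tested, so these markers and the adult hepatocyte markers do not measure host cell content. The part of other cells in the results was not tested. Adult hepatocyte markers varied instead, and their values stand beside the liver genes below. In whole-tumour RNA, fewer cells of a type and less RNA per cell cannot be told apart.

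No gene passed the threshold after adjustment for multiple testing. Signals are normalized intensities on the log2 scale, where a difference of 1 is a doubling, and each gene was tested with limma's moderated test on its brightest probe. At an adjusted p under 0.05, 0 of 15387 genes (0%) were called, the smallest adjusted p being 0.235. By any amount, 8468 genes (55%) lay higher in MRX34 and 6919 (45%) lower. At an unadjusted p under 0.05, 968 genes (6.29%) lay higher in MRX34 and 471 (3.06%) lower. With equal replicate numbers as pairs among the 6 arrays, those counts were 1499 and 869, and 0 genes passed the adjusted threshold. Without empty liposomes 1 they were 542 and 415, without empty liposomes 2 they were 1797 and 787, without MRX34 2 they were 585 and 391, and without both empty liposomes 1 and MRX34 2 they were 468 and 532. With median scaling in place of quantile normalization they were 951 and 276, so that 77.5% of these genes lay higher against 67.3% in the main fit. That scaling moved the median difference of all genes from 0.05 to 0.10. All 3 MRX34 arrays lay above all 3 liposome arrays for 1385 genes (9%) and below them for 833 (5.41%). A difference of at least 1 log2 unit was seen for 327 genes (2.13%) upward and 226 (1.47%) downward. The 12 genes with the smallest p in each direction had an adjusted p of 0.235 to 0.319. The shares of all genes at that p, higher and lower, were 9.74% and 5.65% with pairs, 3.52% and 2.7% without empty liposomes 1, 3.04% and 3.46% without MRX34 2 as well, and 4.01% and 2.55% with array brightness as a covariate. The genes below are described by their values and counts, and none is called.

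**Figure D1:**
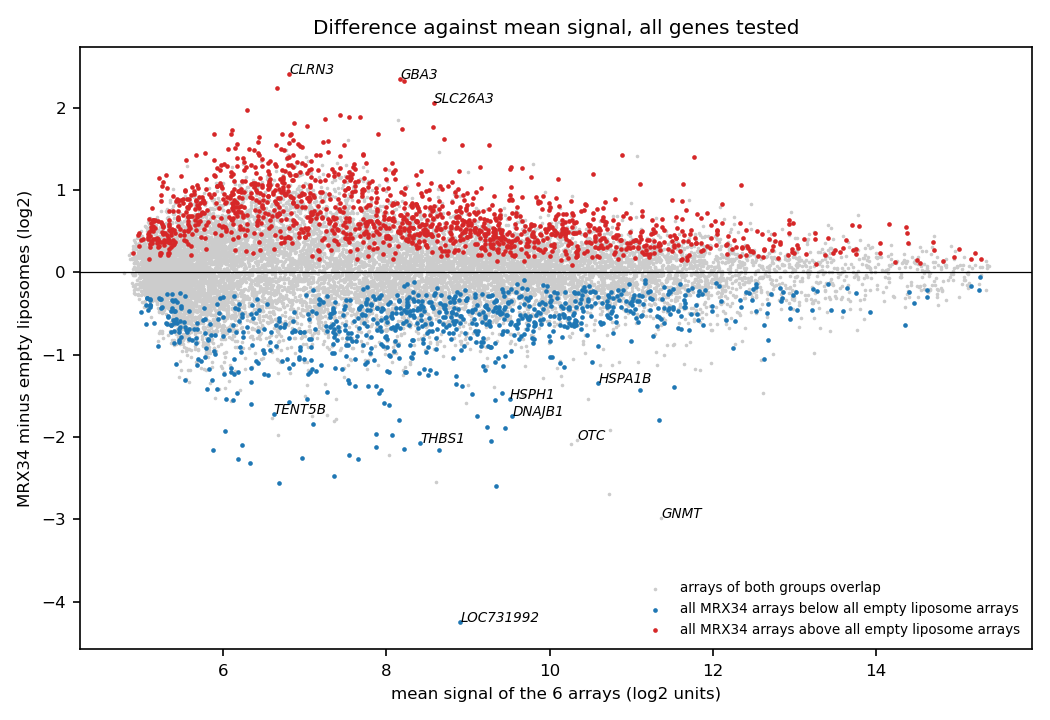
Difference between MRX34 and empty liposomes (log2, vertical) against the mean signal of the 6 arrays (log2 units, horizontal) for 15387 genes. Red and blue points are the 1385 and 833 genes whose arrays did not overlap between groups, and the most negative point, LOC731992 at -4.25, was named after its value was seen.

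THBS1, the secreted matrix glycoprotein thrombospondin 1, an inhibitor of angiogenesis and activator of latent TGF-beta, had the smallest p of all genes. Its signal was 9.72, 9.26 and 9.37 log2 units in empty liposomes and 7.35, 7.37 and 7.42 in MRX34. The 3 MRX34 arrays were nearly level and lay well below all liposome arrays, a difference of -2.07 (SE 0.266, 3 against 3 arrays) or 4.20-fold. The adjusted p was 0.235 with limma.

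The chaperone genes HSPH1, HSPA1B, DNAJB1 and BAG3 were also among the 12 lowest p-values on the lower side and are described with the heat shock genes. TENT5B (FAM46B in the table), of a family of non-canonical poly(A) polymerases, gave 7.90, 7.24 and 7.31 in empty liposomes and 5.62, 5.64 and 6.02 in MRX34. The groups did not overlap, and the difference was -1.73 (SE 0.263), or 3.31-fold. FOXK2, a forkhead transcription factor, was dimmer, at 6.09, 6.44 and 6.35 against 5.11, 5.17 and 5.49, with 1 of 3 MRX34 arrays over background. Its difference of -1.03 is thus measured close to the detection limit. UNKL, a zinc finger protein related to unkempt, was tight in empty liposomes at 7.0, 6.97 and 6.95 and gave 5.61, 6.41 and 5.62 in MRX34. The second MRX34 array lay nearest to the carrier, and the mean difference was -1.10 (SE 0.238). ZNF609, a zinc finger protein, differed by -1.06, SERTAD1, a CDK4-binding cofactor of E2F transcription, by -1.17, and MORC2, a chromatin-compacting ATPase, by -0.96, each with no overlap between groups. BEND3, a BEN-domain repressor of transcription, differed by -0.90 on its brightest probe, whereas its other probes gave -0.71 and 0.10. These 12 genes were taken for their small p, so their separation follows in part from that choice.

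CLRN3, a clarin-family membrane protein, had the smallest p among genes higher in MRX34. It gave 5.74, 6.11 and 4.98 in empty liposomes and 8.09, 8.27 and 7.69 in MRX34. The groups lay far apart, at a difference of 2.41 (SE 0.367) or 5.30-fold, but 1 of 3 liposome arrays was above background, so the carrier level is poorly fixed. GBA3, the cytosolic beta-glucosidase of liver, gave 6.55, 7.68 and 6.75 against 9.45, 9.41 and 9.18. All MRX34 arrays lay above the brightest liposome array, and the difference was 2.35 (SE 0.402) on that probe and 1.83 on the gene's other probe.

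Several of the other higher genes encode transporters, enzymes and ligands. SLC26A3, a chloride-bicarbonate exchanger, gave 6.96, 8.49 and 7.20 in empty liposomes and 9.45, 9.59 and 9.78 in MRX34. Empty liposomes 2 lay nearest to the MRX34 arrays, and the difference was 2.06 (SE 0.37). SLC30A1, the zinc exporter of the plasma membrane, gave 8.05, 7.66 and 7.61 against 8.78, 8.98 and 9.10, a difference of 1.18. UGT2B28, a steroid glucuronosyltransferase with close paralogs on the array, differed by 1.86 and was above background on 2 of 3 liposome arrays. BMP7, a TGF-beta family ligand, was among the tightest of the 12, at 6.72, 6.56 and 6.79 against 7.78, 7.82 and 7.83. Its groups were separated by several times their spread, with a difference of 1.12 (SE 0.198). EDNRB, the endothelin B receptor, differed by 1.32 and ARHGDIB by 1.68, with 2 and 1 of 3 liposome arrays above background. ASIP, the agouti signalling protein, differed by 1.97 and FAM162B, a paralog of the hypoxia-responsive FAM162A, by 1.68, each with 2 of 3 liposome arrays above background. The remaining members of the 12, EPB41L4A-AS1 and SNORD3C, are described with the small nucleolar RNAs.

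**Figure D2:**
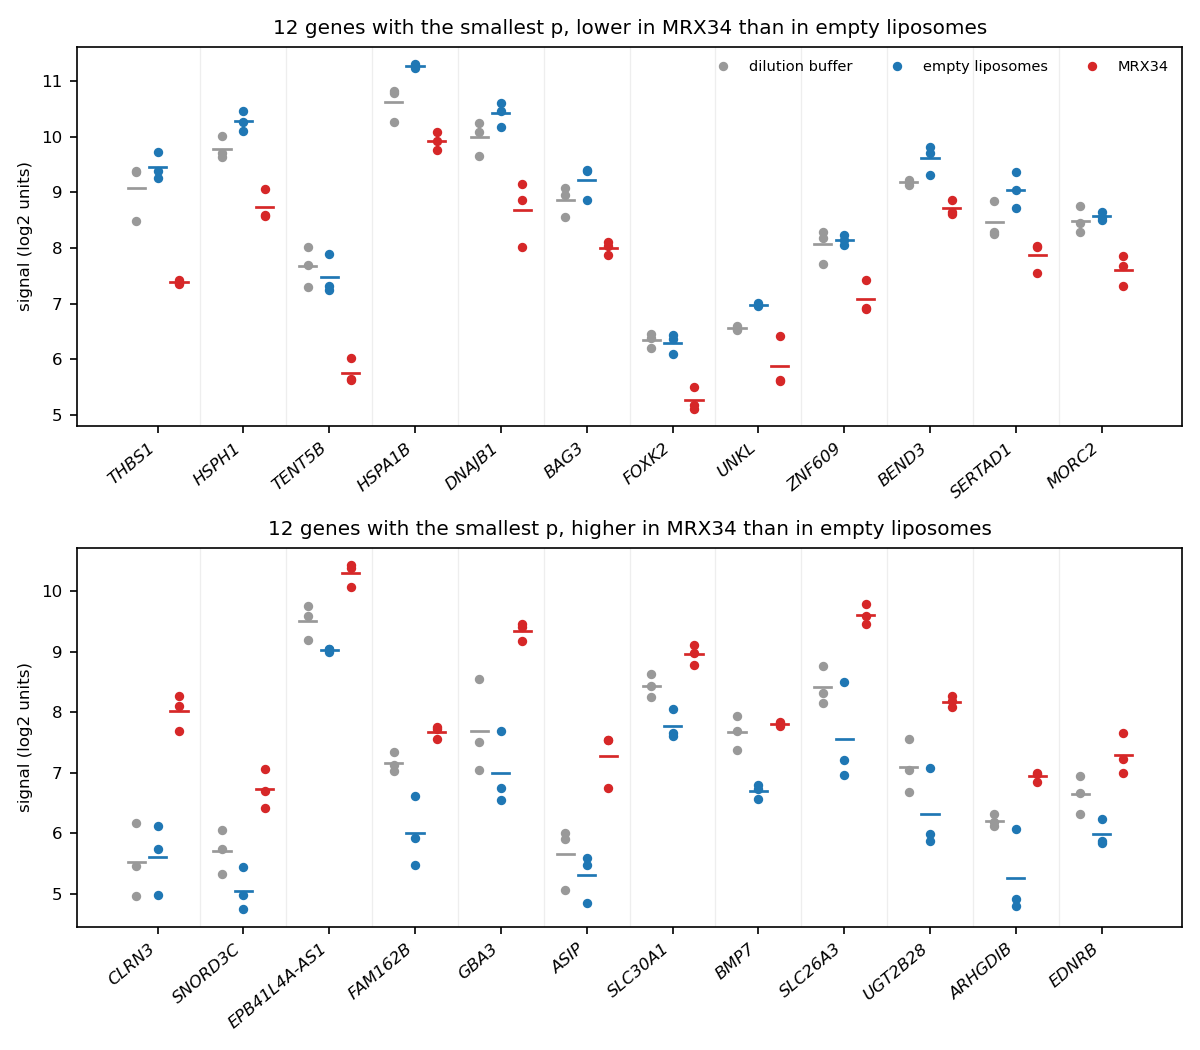
Signal (log2 units) on each array for the 12 genes with the smallest p in each direction; points are arrays, short lines are group means, and colours mark dilution buffer, empty liposomes and MRX34. In all 24 genes the 3 MRX34 arrays lie on one side of the 3 liposome arrays, and THBS1 in MRX34 spans 7.35 to 7.42.

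The carrier itself can be set beside dilution buffer, with the caution that differences from a shared group are not independent of each other. For all 12 lower genes MRX34 also lay below buffer, by -1.91 (TENT5B) to -0.48 (BEND3), while empty liposomes differed from buffer by -0.18 to 0.65. THBS1 was at -1.70 in MRX34 and 0.37 in empty liposomes. HSPA1B was at -0.70 in MRX34 and 0.65 in empty liposomes, so that its distance between the liposome groups was made up of similar parts on either side of buffer. Among the 12 higher genes MRX34 lay above buffer for all, by 0.15 to 2.49, and empty liposomes differed from it by -1.16 to 0.08. CLRN3 was at 2.49 in MRX34 and 0.08 in empty liposomes. BMP7 was the opposite case, at 0.15 in MRX34 and -0.97 in empty liposomes, and FAM162B was at 0.51 and -1.16. For these genes most of the distance lay between the carrier and buffer.

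**Figure D3:**
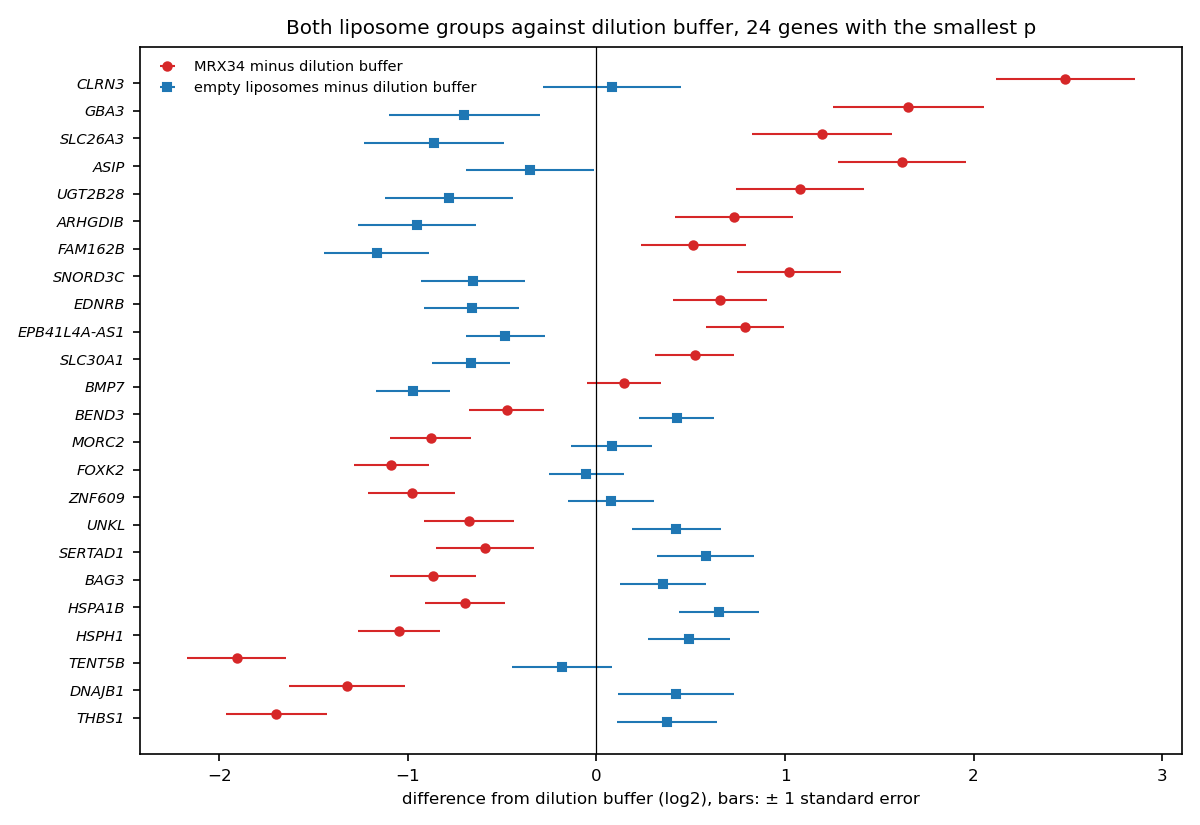
Difference of MRX34 (red circles) and of empty liposomes (blue squares) from dilution buffer (log2, horizontal) for the 24 genes with the smallest p; bars are 1 standard error. CLRN3 sits at 2.49 and 0.08, and BMP7 at 0.15 and -0.97.

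Heat shock genes lay lower in MRX34 than after the carrier. They encode chaperones that bind unfolded proteins, and their stress-inducible members are driven by HSF1, which binds repeats of the heat shock element. Of 25 members tested, 17 lay lower and 8 higher, with a median difference of -0.45 against 0.05 for all genes. An unadjusted p under 0.05 was reached by 10 lower members (40%, against 3.06% of all genes) and 0 higher ones. The arrays did not overlap for 13 lower members (52%, against 5.41%) and 0 higher ones. The mean of the members on each array, relative to their mean over the 9 arrays, was 0.25, 0.20 and 0.24 log2 units in empty liposomes and -0.32, -0.25 and -0.24 in MRX34. Dilution buffer arrays lay between, at -0.12, 0.04 and 0.20. Against buffer the median was -0.30 for MRX34 and 0.34 for empty liposomes. Without empty liposomes 1 the median was -0.51, with 8 lower members under p 0.05 (32%, against 2.7% of all genes in that fit), and without MRX34 2 as well it was -0.34, with 9 (36%, against 3.46%). With array brightness as a covariate it was -0.34 with 8 such members (32%, against 2.55%). With the GNMT and OTC level, 2 liver transcripts that varied between arrays, it was -0.31.

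The HSP70 system showed the largest differences. HSPH1, the HSP110 nucleotide exchange factor of HSP70, gave 10.11, 10.47 and 10.26 in empty liposomes and 8.59, 9.06 and 8.57 in MRX34. The groups were separated by more than 1 log2 unit at their nearest arrays, and the difference was -1.54 (SE 0.219) or 2.90-fold. DNAJB1, the inducible HSP40 cochaperone that delivers substrates to HSP70, gave 10.61, 10.18 and 10.46 against 8.85, 8.02 and 9.15. Its MRX34 arrays were more spread but all lower, at -1.75 (SE 0.307). HSPA1B, an inducible HSP70, was the tightest, at 11.27, 11.23 and 11.30 against 9.76, 10.09 and 9.93, a difference of -1.34 (SE 0.212). Its near-identical copy HSPA1A gave -1.15 (SE 0.296), and their probes may share transcripts. BAG3, a nucleotide exchange factor that routes HSP70 clients to autophagy, gave 9.39, 8.86 and 9.40 against 8.03, 8.10 and 7.87. No array crossed between groups, and the difference was -1.22. HSPA8, the constitutive HSC70, was brighter and differed less, at 13.23, 12.94 and 13.51 against 12.69, 12.70 and 12.59. Its probes gave -0.57 and -0.54.

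Other inducible members lay lower by smaller amounts. DNAJA1, another HSP40, differed by -0.82 (SE 0.326), CHORDC1, an HSP90-binding protein, by -0.79 (SE 0.255) and SERPINH1, the collagen chaperone HSP47 of the endoplasmic reticulum, by -0.71 (SE 0.229). Among small heat shock proteins, HSPB1 differed by -0.45 and CRYAB by -1.03, both with no overlap and an unadjusted p above 0.05. The HSP90 cochaperones FKBP4 and STIP1 were at -0.85 and -0.75 with overlapping arrays. The HSP90 isoform HSP90AA1 was at 0.15, HSPA4, a relative of HSPH1, at 0.29, and the mitochondrial pair HSPD1 and HSPE1 at 0.14 and 0.07. For HSP90AA1, HSPD1 and HSPE1 the sign turned when 1 array was left out. HSPA6, the strictly inducible HSP70, was at 0.11 and above background on 1 liposome array and 2 MRX34 arrays, so that it could not be judged at this signal.

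Promoters of the heat shock genes were searched for the element that HSF1 is known to bind, since the data bear on members that lay lower together. In the 250 bases before the start site in RefSeq (GRCh38.p14), both strands were searched for 3 alternating units, GAANNTTCNNGAA or TTCNNGAANNTTC. At least 1 was found in 5 of 22 heat shock promoters (22.7%) and in 120 of 27305 promoters of the table (0.44%). The shorter pair, GAANNTTC or TTCNNGAA, which lies within the longer element, was in 9 of 22 (40.9%) and in 3208 of 27305 (11.7%). Among tested genes it was in 849 of 9797 promoters (8.67%). Of the 12 promoters of members whose arrays lay lower without overlap, 8 held the pair, as did 1 of the other 10, HSPA6. The promoters are not independent. HSPA1A and HSPA1B are near-identical copies and both count among the 8, and the windows of HSPD1 and HSPE1, among the other 10, overlap. The split is a description of members sorted by their values, with no test. Bases before the start are shown for 4 members, 5′ to 3′ on the gene's strand, with the pairs in capitals: CHORDC1 (chr11:90223050-90223169, minus), HSPA8 (chr11:123062137-123062256, minus), SERPINH1 (chr11:75562133-75562252, plus) and HSPA1B (chr6:31827618-31827737, plus).
CHORDC1: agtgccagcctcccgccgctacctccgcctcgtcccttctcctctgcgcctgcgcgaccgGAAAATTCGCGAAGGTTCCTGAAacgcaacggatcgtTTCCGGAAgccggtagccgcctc
HSPA8: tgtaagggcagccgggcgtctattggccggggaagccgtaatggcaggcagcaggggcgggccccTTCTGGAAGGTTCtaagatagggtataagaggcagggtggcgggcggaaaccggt
SERPINH1: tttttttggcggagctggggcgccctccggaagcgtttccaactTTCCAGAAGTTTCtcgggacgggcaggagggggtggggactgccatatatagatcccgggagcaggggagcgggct
HSPA1B: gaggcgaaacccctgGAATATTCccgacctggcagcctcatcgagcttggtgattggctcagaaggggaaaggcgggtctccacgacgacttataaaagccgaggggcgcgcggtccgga
CHORDC1 holds 3 overlapping long elements in 1 run, HSPA8 and SERPINH1 hold 1 each in the bases shown, and HSPA1B holds a pair. HSPH1, DNAJB1 and BAG3 had no match in their windows.

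Genes of the hypoxia response and glycolysis leaned higher in MRX34, and the values depended more on single arrays than those of the heat shock genes. HIF transcription factors induce glucose uptake, glycolysis, pH control and mitophagy when oxygen falls. Of 37 members tested, 25 lay higher and 12 lower, with a median of 0.29. An unadjusted p under 0.05 was reached by 8 higher members (21.6%, against 6.29% of all genes) and 1 lower (2.7%, against 3.06%). The arrays did not overlap for 8 higher members (21.6%, against 9%) and 1 lower. With equal numbers as pairs among the 6 arrays, 16 higher members reached that p (43.2%, against 9.74% of all genes in that fit). Without empty liposomes 1 there were 3 (8.11%, against 3.52%), at a median of 0.14, and without MRX34 2 as well there was 1 (2.7%, against 3.04%), at 0.08. Leaving out single arrays gave medians from 0.14 (without empty liposomes 1) to 0.48 (without MRX34 1). With array brightness as a covariate there were 3 (8.11%, against 4.01%), at 0.14. The member mean was -0.52 on empty liposomes 1, the dimmest array, and 0.05 and 0.09 on the other carrier arrays, against -0.01, 0.35 and 0.42 in MRX34 and 0.18, -0.03 and -0.52 in dilution buffer. The part of brightness in the difference was not tested beyond these values.

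BNIP3L, a mitophagy receptor, gave 6.84, 7.73 and 7.72 in empty liposomes and 8.25, 8.94 and 8.49 in MRX34. Its groups did not overlap, and the difference was 1.13 (SE 0.313). Its relative BNIP3 was at 0.85 with overlap. PFKFB4, which makes the activator of glycolytic phosphofructokinase, differed by 1.23, ADM, the vasodilator peptide adrenomedullin, by 1.13, and SLC2A1, the glucose transporter GLUT1, by 0.69, each without overlap. KDM3A, a histone demethylase induced by HIF, gave 0.81 and P4HA1, a collagen prolyl hydroxylase subunit, 0.76. P4HA2, its sister subunit, lay the other way at -0.58 on its brightest probe but at 0.49 on its other probe. CA9, the tumour carbonic anhydrase, showed how far empty liposomes 1 stood out, at 5.89, 8.44 and 8.71 against 8.92, 9.76 and 9.67. Its difference of 1.77 had an SE of 0.861, and 2 of 3 liposome arrays were above background. Glycolytic enzymes differed among themselves. ENO2, the neuronal enolase, was at 1.38 (SE 0.53) with an unadjusted p of 0.0272 and overlapping arrays. TPI1, triose-phosphate isomerase, was at -0.45 and 0.16 on its probes, and PGK1, phosphoglycerate kinase, at 0.12 and 0.92. GAPDH, the enolase ENO1 and the aldolase ALDOA were at -0.05, -0.05 and -0.07 on their brightest probes. For these 3 and PGK1 the sign turned under at least 1 alternative. PGAM1 was at -0.94, which rested on MRX34 2 (6.98, against 9.86 and 10.33 on the other MRX34 arrays) and was 0.10 without it.

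**Figure D4:**
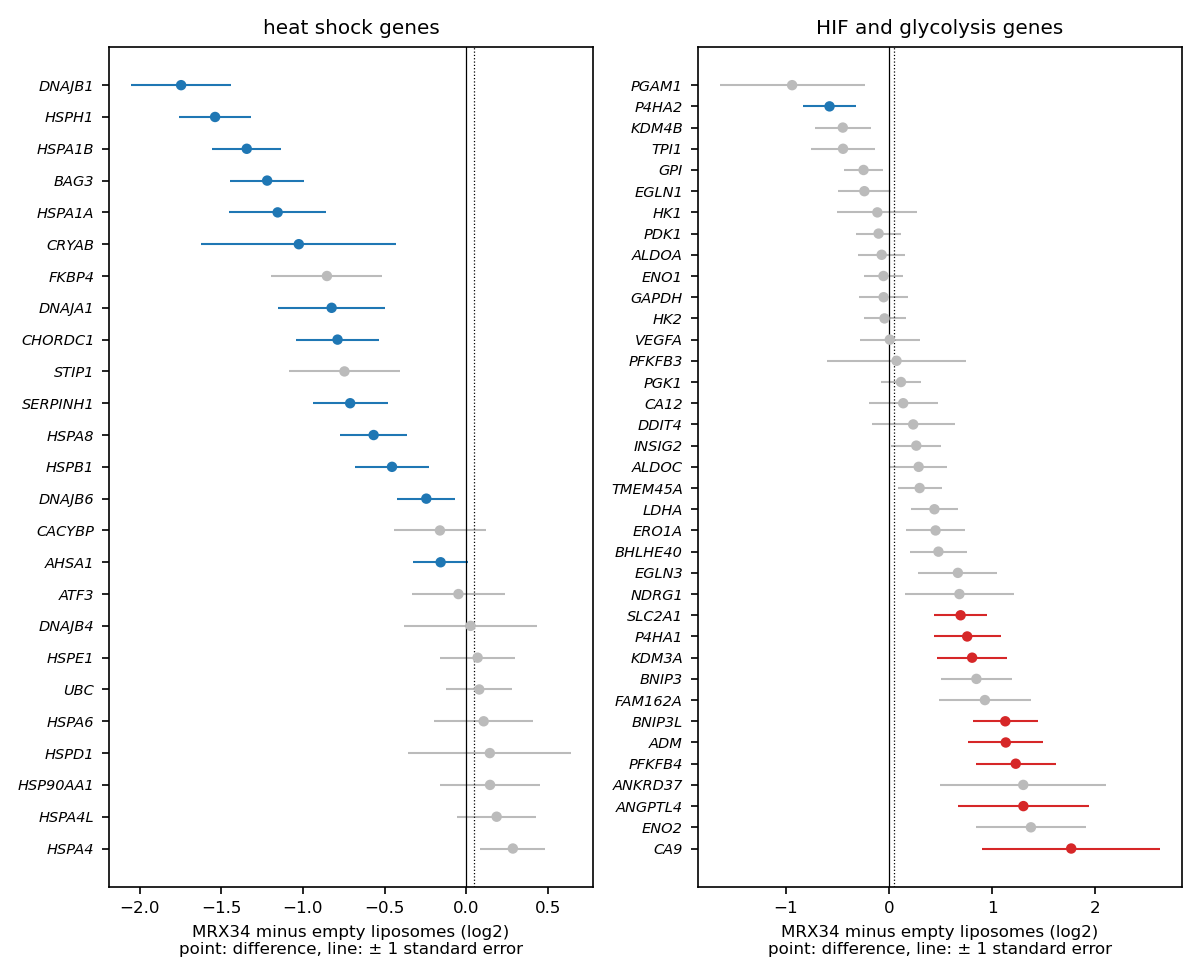
Difference between MRX34 and empty liposomes (log2, horizontal) for each tested member of the heat shock list (left) and of the HIF and glycolysis list (right); lines are 1 standard error, blue and red mark members whose arrays lay lower or higher without overlap, and the dotted line is the median of all genes. On the left 13 members are blue, from DNAJB1 at -1.75; on the right 8 are red and 1 is blue.

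Reported miR-34a targets had a median near 0, while more of them lay lower than higher without overlap. Of 68 listed genes 50 were tested, and 24 lay higher and 26 lower, with a median of -0.02. An unadjusted p under 0.05 was reached by 3 lower members (6%, against 3.06% of all genes) and 2 higher (4%, against 6.29%). Non-overlapping arrays were seen for 6 lower members (12%, against 5.41%) and 1 higher (2%, against 9%). With equal numbers as pairs, 7 lower members (14%, against 5.65% of all genes) and 3 higher (6%, against 9.74%) had an unadjusted p under 0.05. There were 2 of each without empty liposomes 1 (4%, against 2.7% and 3.52%), at a median of -0.05. PPP1R10, a regulatory subunit of protein phosphatase 1, gave 9.51, 9.44 and 9.32 in empty liposomes and 8.61, 8.45 and 8.80 in MRX34. That was the lower target with the smallest p, at -0.80 (SE 0.212). GFRA3, a receptor of GDNF-family ligands, differed by -0.67 and NOTCH1, the Notch receptor, by -0.55. NOTCH1 gave 7.76, 7.26 and 7.74 against 7.23, 7.08 and 6.82, so the nearest arrays of the groups almost touched. MYCN, at -0.69, and CCND1 (cyclin D1), at -0.24, had no overlap but an unadjusted p above 0.05. CCND1 was at 10.90, 10.84 and 10.86 in empty liposomes against 10.79, 10.54 and 10.56, a small shift between tight groups.

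MYC, which promotes cell growth, gave 10.97, 10.73 and 11.08 against 10.33, 10.59 and 10.76. The groups overlapped by 1 array, and the difference was -0.37 (SE 0.194), or -0.10 on its other probe. CTNNB1, beta-catenin, depended on the probe, at -0.96, -0.99 and 0.45. CAV1, the membrane coat protein caveolin 1, lay the other way with tight groups, at 8.03, 8.21 and 8.01 against 8.82, 8.97 and 8.83. Its difference was 0.79 (SE 0.177), the smallest p of the list. LDHA, lactate dehydrogenase A, was at 0.44, 0.47 and 1.09 on its probes and CCNE2, cyclin E2, at 0.48, both with overlap. The kinases CDK4 and CDK6 were at 0.22 and 0.16, the receptor kinase MET at 0.17, the deacetylases SIRT1 and HDAC1 at 0.22 and 0.08, E2F3 at -0.06, FOXP1 at 0.16 and AXL at 0.11. Apart from CDK4 and CDK6 the sign of each of these 6 turned under at least 1 alternative. BCL2, CD44 and CD274 were not tested, since their best probes were above background on 2, 0 and 0 of the 9 arrays.

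Some liver enzymes were tight within each group and others varied widely between arrays. Of 27 tested genes of adult hepatocyte metabolism, 14 lay higher and 13 lower, with a median of 0.08 that was -0.07 without empty liposomes 1. An unadjusted p under 0.05 was reached by 7 higher (25.9%, against 6.29% of all genes) and 0 lower members, and 8 higher ones had no overlap (29.6%, against 9%). With pairs 3 lower members (11.1%, against 5.65%) had such a p beside 7 higher. Without empty liposomes 1 there were 6 higher (22.2%, against 3.52%) and 3 lower (11.1%, against 2.7%), and without MRX34 2 as well there were 3 of each (11.1%, against 3.04% and 3.46%). ADH4, an alcohol dehydrogenase, gave 7.81, 8.42 and 7.46 in empty liposomes and 9.63, 9.62 and 9.31 in MRX34. Every MRX34 array lay above the brightest carrier array, and the difference was 1.63 (SE 0.332). UGT2B4, a bile acid glucuronosyltransferase, was at 11.14, 10.96 and 11.07 against 11.67, 11.82 and 11.60, a difference of 0.64. G6PC1, the glucose-6-phosphatase of gluconeogenesis, differed by 0.90 with 2 of 3 liposome arrays above background.

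GNMT, glycine N-methyltransferase, and OTC, ornithine transcarbamylase of the urea cycle, had the most negative list values and no such stability. GNMT gave 14.60, 12.43 and 11.54 in empty liposomes, 11.81, 10.21 and 7.59 in MRX34, and 8.09, 10.67 and 15.16 in dilution buffer. The groups overlapped, and the spread among buffer arrays alone exceeded the difference of -2.99 (SE 1.66). OTC followed the same order of arrays within each group, with a difference of -2.04 (SE 1.21). The summed level of the 7 tested adult hepatocyte markers spanned 13.51 to 15.07 log2 units in empty liposomes and 12.18 to 13.31 in MRX34. In buffer it spanned 12.20 to 15.67, and 5 of 8 markers were above background on all 6 arrays. Unlogged intensities were summed, so the brightest markers, such as GNMT and OTC, weigh most. The other tested markers went both ways. CPS1 differed by -0.50, HPD by -0.64 and CYP2E1 by -0.02, while ARG1 differed by 0.61 and TAT by 0.87. TAT was above background on 0 of 3 liposome arrays and 2 of 3 MRX34 arrays, and CYP2E1 on 1 of 3 in each group. LOC731992, named after its value was seen, varied in a like way. It gave 12.97, 10.63 and 9.49 against 8.17, 6.97 and 5.21. With the mean of GNMT and OTC as a covariate, 443 genes lay higher and 348 lower at an unadjusted p under 0.05.

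Small nucleolar RNAs, which guide modification and processing of ribosomal RNA, leaned higher. Of 42 tested, 29 lay higher and 13 lower, at a median of 0.19. An unadjusted p under 0.05 was reached by 6 higher members (14.3%, against 6.29% of all genes) and 0 lower, and 9 higher members had no overlap (21.4%, against 9%). SNORD3A, a copy of the U3 RNA needed for the first cuts of the ribosomal precursor, gave 8.16, 7.57 and 7.72 in empty liposomes and 9.36, 8.56 and 9.21 in MRX34. No array crossed, and the difference was 1.23 (SE 0.257). Its near-identical copies SNORD3C and SNORD3D (the latter outside the naming rule) gave 1.68, with 1 of 3 liposome arrays above background, and 1.74, and the 3 probes are not independent. SNORD13, the U13 RNA, differed by 1.17, with 1 of 3 liposome arrays above background. The list had 23 members higher and 19 lower without empty liposomes 1, at a median of 0.06, with 5 higher members under p 0.05 (11.9%, against 3.52% of all genes).

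Transcripts that host such RNAs lay higher in 13 of 16 cases, at a median of 0.19 that was 0.34 without empty liposomes 1. EPB41L4A-AS1 (TIGA1 in the table), a long non-coding RNA, gave 8.99, 9.05 and 9.04 in empty liposomes and 10.07, 10.38 and 10.43 in MRX34. The carrier arrays were nearly level and far from every MRX34 array, and the probes gave 1.27 and 1.21. SNHG8 differed by 0.82 and ZFAS1 by 0.64, both without overlap. Cytosolic ribosomal proteins, whose genes often host small nucleolar RNAs, were higher in 53 of 76 cases (69.7%, against 55% of all genes). Their median was 0.09, against 0.05 for all genes. An unadjusted p under 0.05 was reached by 2 higher members (2.63%, against 6.29%), RPL36A at 0.64 and RPS3A at 0.57, and 0 lower. Without empty liposomes 1 there was 1 higher (1.32%, against 3.52% of all genes) and 0 lower. The arrays did not overlap for 10 higher members (13.2%, against 9%) and 2 lower (2.63%, against 5.41%). Factors of ribosome biogenesis had a median of -0.03, or -0.07 without empty liposomes 1, with 4 of 51 lower at an unadjusted p under 0.05 (7.84%, against 3.06% of all genes). Among them were UBTF, the activator of RNA polymerase I, at -1.09, and the chaperone of ribosomal protein L3 GRWD1 at -0.63.

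Lists of the cell cycle, p53 targets and immediate early genes had medians between -0.21 and 0.16, between -0.08 and 0.04 without empty liposomes 1, and between -0.08 and 0.03 without MRX34 2 as well. Of 36 genes of G2 and mitosis, 7 lay lower without overlap (19.4%, against 5.41% of all genes) and 1 higher (2.78%, against 9%), though the median was 0.06. At an unadjusted p under 0.05 there were 2 lower (5.56%, against 3.06%) and 1 higher (2.78%, against 6.29%). Without empty liposomes 1 there were 0 lower (0%, against 2.7%) and 1 higher (2.78%, against 3.52%). TPX2, a spindle assembly factor, differed by -0.71 and UBE2C, the ubiquitin-conjugating enzyme of the anaphase-promoting complex, by -0.43, while the mitotic phosphatase CDC25C was at 0.83. S phase genes had a median of 0.03, with GINS2 of the replicative helicase at 0.45 and POLE, the leading-strand polymerase, at -0.60. CDKN1A, the cyclin-dependent kinase inhibitor p21, gave 8.79, 7.90 and 8.08 against 9.67, 8.81 and 9.57. The lowest MRX34 array was just above the highest carrier array, and the difference was 1.09 (SE 0.332). BAX, a pro-apoptotic effector, gave -1.47 on 1 probe and 0.08 on another. Of 29 immediate early genes 17 lay lower, at a median of -0.21, with 6 lower ones without overlap (20.7%, against 5.41%). An unadjusted p under 0.05 was reached by 1 higher member (3.45%, against 6.29% of all genes) and 2 lower (6.9%, against 3.06%). With pairs there were 2 higher (6.9%, against 9.74%) and 5 lower (17.2%, against 5.65%). Without empty liposomes 1 there were 3 higher (10.3%, against 3.52%) and 0 lower (0%, against 2.7%), at a median of -0.08. JUN differed by -0.61 and its partner FOS by 1.61, where empty liposomes 1 (5.23) lay far below the other carrier arrays (7.87 and 7.08).

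Interferon and RNA-sensing genes are known to respond to double-stranded RNA inside cells. Of 29 tested, 12 lay higher and 17 lower, at a median of -0.07. An unadjusted p under 0.05 was reached by 1 higher member (3.45%, against 6.29% of all genes) and 3 lower (10.3%, against 3.06%). The arrays did not overlap for 5 higher members (17.2%, against 9%) and 3 lower (10.3%, against 5.41%). The median was -0.15 without empty liposomes 1, with 7 higher and 22 lower, and without MRX34 2 as well it was -0.23. IFI6, an interferon-induced mitochondrial protein, gave 9.73, 9.65 and 9.88 in empty liposomes, 8.78, 8.73 and 8.35 in MRX34, and 8.42, 9.05 and 9.47 in buffer. MRX34 lay below the carrier with no overlap, at -1.13 and -1.35 on its probes, and the carrier lay 0.78 above buffer. IRF9, which binds DNA in the interferon-stimulated complex, showed a like order, at -0.85 against the carrier and with the carrier 0.62 above buffer. XAF1, a pro-apoptotic interferon-induced gene, gave 1.20 on 1 probe and -0.11 on another. In the NF-kB and inflammatory list (median -0.20) the complement component C3 gave 8.80, 8.84 and 9.16 against 7.58, 4.95 and 7.91. Its difference of -2.12 (SE 0.64) was -1.19 without MRX34 2, the array that was not above background.

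Among lipid genes, CIDEC, a lipid droplet fusion protein, gave 5.75, 7.79 and 7.62 against 9.44, 8.83 and 9.86 on its brightest probe, a difference of 2.33, and 0.15 on its other probe. INSIG1, which retains the sterol sensor in the endoplasmic reticulum, was at 0.71 and HMGCS1, the synthase of hydroxymethylglutaryl-CoA, at 0.60. The 24 genes of cholesterol synthesis had a median of -0.02, which was 0.01 without empty liposomes 1 and 0.20 without MRX34 2 as well. PPARA and fatty acid oxidation genes lay higher in 20 of 27 cases, at 0.27, with 2 under p 0.05 (7.41%, against 6.29%), PDK4 at 0.87 and ETFDH at 0.63. PDK4 was dim, with 1 of 3 liposome arrays above background. Without empty liposomes 1 the median was 0.13 and 0 higher members had such a p. DTX1, a ubiquitin ligase of the Notch pathway, gave 6.58, 7.45 and 7.47 against 5.93, 5.82 and 6.02. It lay 1.26 above buffer in the carrier and 0.01 above it in MRX34. The 20 Notch genes had a median of -0.13 and the 18 Wnt targets -0.02, or -0.26 and -0.17 without empty liposomes 1.

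**Figure D5:**
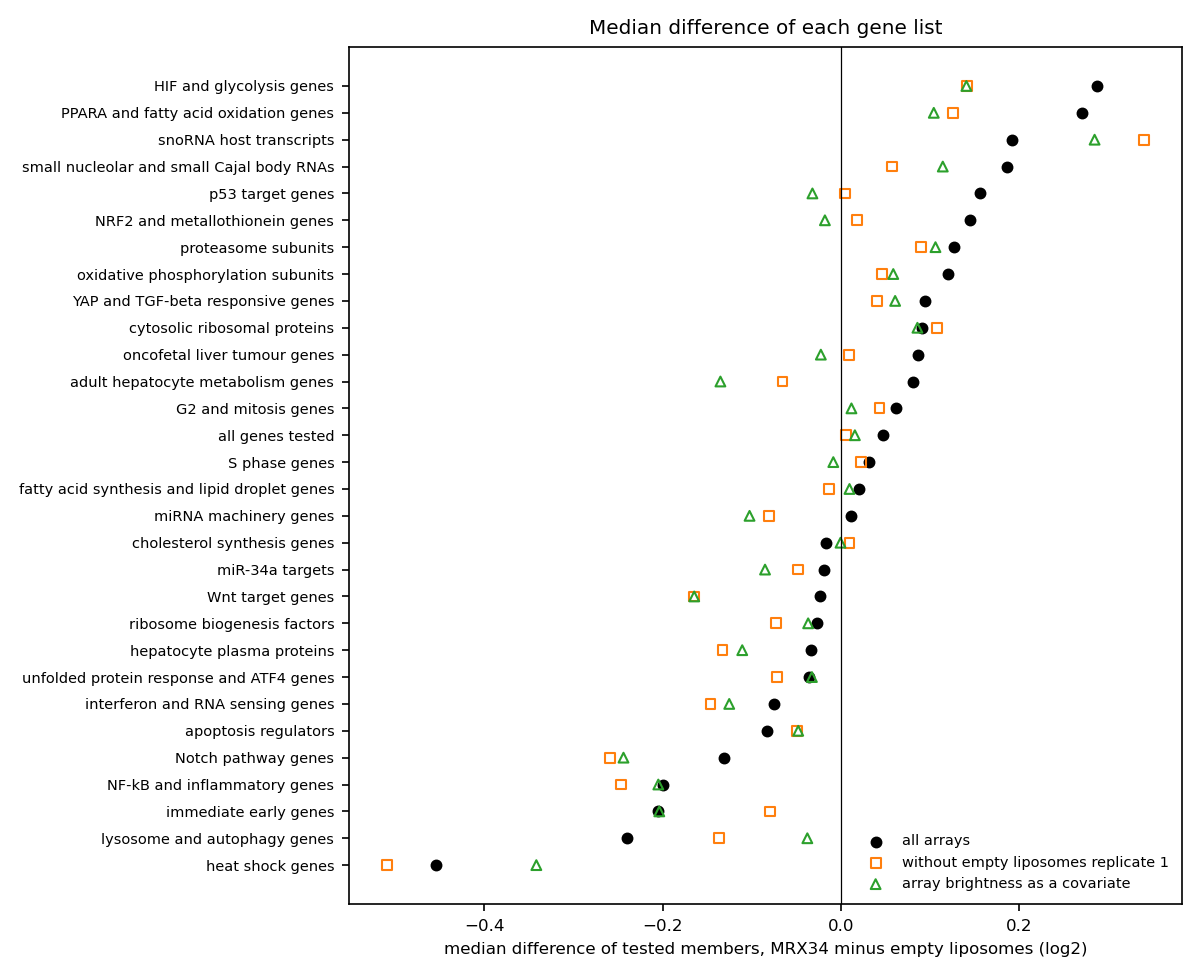
Median difference between MRX34 and empty liposomes (log2, horizontal) of the tested members of each gene list, on all arrays (filled circles), without empty liposomes 1 (squares) and with array brightness as a covariate (triangles). Heat shock genes are lowest in all 3, at -0.45, -0.51 and -0.34, while the HIF list moves from 0.29 to 0.14 and 0.14.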

How the data were processed

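Total RNA of whole tumours was hybridised to 9 Illumina arrays, 3 per group. The deposited table used here holds intensity values with a detection p-value per array, per the file headers. Its values show that the arrays had been put on 1 common distribution, with background still included. The deposited series table holds background-subtracted intensities and served as an alternative. Which software normalized either one was not stated in the labels.

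In R 4.3.3 with limma 3.58.1, signals were background-corrected (normexp, with the negative-control level read through the detection p). An offset of 16 was added, which shrinks differences of dim probes, before quantile normalization and the log2 transform. Probes had to have a detection p under 0.05 on at least 3 of 9 arrays. Of 47322 probes 43906 were named, 4626 of them through a RefSeq synonym, and each of 15387 genes was represented by its brightest probe. Group means were fitted on all 9 arrays, so that buffer arrays added to the estimate of spread, with limma's moderated test (two-sided). Benjamini-Hochberg adjustment covered all 15387 genes. The number of arrays limits the precision.

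Named genes were the 12 with the smallest p in each direction (placeholders passed over), up to 3 members of each list, every heat shock and HIF member, 18 chosen miR-34a targets, and AFP, GPC3, GNMT and OTC. Genes outside this rule were said to be so. The lists, their members and this rule were chosen with earlier results of these data known. Lists were described by counts and medians beside those of all genes.

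Equal replicate numbers of the groups correlated at 0.44, 0.49 and 0.28 in their deviations from the group means. The labels state no pairing, so this comes from the data, and the paired fit was an alternative. The remaining alternatives varied how background, scaling, filtering, probes, variance and weights were handled, added covariates, took the series table, or left out arrays. Leaving out empty liposomes 1 together with MRX34 2 was added after the data were seen.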

Additional observations from a re-analysis of the deposited data

How the results depend on the processing

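Of 122 genes followed through the 24 alternatives, 104 kept their sign in all of them, where each could be fitted. The number of genes at an adjusted p under 0.05 was 3 with a trended and robust variance (THBS1, HSPH1 and HSPA1B, all lower), 267 with array weights and 2 without empty liposomes 2 (ARHGDIB and SLC26A3, both higher), and 0 in the others. The weights were 4.65 for MRX34 3 and 0.26 for empty liposomes 1. At an unadjusted p under 0.05, higher and lower genes numbered 1907 and 1456 with array weights and 1499 and 869 with the replicate block of equal numbers on 6 arrays. The block changed no adjusted call. Higher genes numbered 617 with array brightness and 443 with the GNMT and OTC level as a covariate, and lower genes 276 with median scaling and 875 without a filter. Leaving out arrays gave 0 to 2 adjusted calls, 468 to 1797 higher and 337 to 787 lower genes. Heat shock medians were -0.39 with median scaling, -0.57 with genes above background on all 6 arrays, -0.51 with weights, -0.34 with brightness, -0.31 with the GNMT and OTC level, and -0.58 to -0.34 with arrays left out. HIF medians were 0.08 to 0.48 with arrays left out.

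The 18 genes whose sign turned were mostly near 0, and the cause was not tested. Median scaling gave 0.0134 for GAPDH, 0.01001 for E2F3, 0.0160 for GPC3 and 0.0119 for ENO1. The series table gave -1.58 for MET and -0.00535 for AXL. The mean of a gene's probes gave -0.24 for HSPD1, 0.0166 for GAPDH and 0.0330 for ALDOA. Array weights gave 0.0418 for PGAM1, -0.0163 for AFP, 0.00305 for ALDOA and -0.17 for HSPA6. Brightness gave -0.16 for HSPD1 and -0.18 for SIRT1. The GNMT and OTC level gave -0.13 for SIRT1, 0.0109 for E2F3, -0.00111 for HDAC1, -0.0113 for PGK1 and 0.0713 for OTC, which is part of that covariate. With arrays left out, ranges were -0.16 to 0.42 for HSP90AA1, -0.34 to 0.64 for HSPD1, -0.0745 to 0.22 for HSPE1, -0.14 to 0.36 for HSPA6, -1.58 to 0.20 for PGAM1, -0.21 to 0.14 for GAPDH, -0.11 to 0.0436 for ENO1, -0.17 to 0.0761 for ALDOA, -0.12 to 0.46 for MET, -0.34 to 0.53 for SIRT1, -0.18 to 0.49 for FOXP1, -0.0836 to 0.34 for AXL and -0.42 to 0.11 for GPC3.

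Precision is limited by 3 arrays per group and by signal over background on empty liposomes 1.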

Other observations

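Further named genes with small unadjusted p belonged to growth, stress and protein turnover lists. IGF2, the fetal growth factor that liver tumours often express, gave 9.32, 7.62 and 9.37 log2 units in empty liposomes and 7.57, 6.54 and 7.45 in MRX34. Empty liposomes 2 lay just above the brightest MRX34 array, and the probes gave -1.58 and -0.97. HMOX1, the haem oxygenase of the oxidative stress response, differed by -0.83 and lay 0.71 above buffer in the carrier. GCLC, the first enzyme of glutathione synthesis, differed by 0.54 the other way. The NRF2 and metallothionein list, which also holds SLC30A1, had a median of 0.15, with 13 members higher and 12 lower. Its median was 0.02 without empty liposomes 1 and -0.02 with array brightness as a covariate.

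In the list of the unfolded protein response and ATF4, PPP1R15A, which returns stressed cells to translation, gave 8.48, 8.24 and 8.17 against 9.07, 8.81 and 9.16. Its arrays did not overlap, at 0.71 (SE 0.205), and it lay 0.24 above buffer in MRX34 and 0.47 below it in the carrier. CEBPB, a liver-enriched transcription factor, differed by -1.39, with buffer arrays spanning 10.86 to 13.23. Proteasome subunits lay higher in 26 of 36 cases at a median of 0.13, or in 21 at 0.09 without empty liposomes 1, with PSMB1 at 0.48 and PSMD5 at 0.69. Lysosome and autophagy genes lay lower in 21 of 35 cases at -0.24, although the 3 with an unadjusted p under 0.05 (8.57%, against 6.29% of all genes) lay higher, among them GABARAPL1, an autophagosome protein, at 0.92. Without empty liposomes 1 their median was -0.14, with 1 higher member at that p (2.86%, against 3.52% of all genes) and 0 lower. Their median was 0.01 without MRX34 2 as well. With pairs 4 members lay higher and 4 lower at that p (11.4% each, against 9.74% and 5.65%). Among Wnt targets the receptor-removing ligase ZNRF3 differed by -0.89 and the transcription factor SP5 by 0.54. CASP6, an executioner caspase, differed by 0.73, and the 27 apoptosis regulators had a median of -0.08, or -0.05 without empty liposomes 1.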
